A study of Mus musculus with 4 samples.

Results

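The T-box transcription factor genes examined here were Tbx1, Tbx2, Tbx3, Tbx4, Tbx5, Tbx18 and Tbx20, and the data were 2 lists of CTCF binding regions from mouse heart muscle cells. A region was taken as a member when its summit, the position of its highest signal, lay within 100 kb of the span of 1 of these 7 genes (build mm10). That rule found 16 of 16128 regions in the library labelled CTCF knockout and 22 of 20043 regions in the control library. A region near both genes of a pair was counted once. CTCF is a DNA-binding protein of insulators and loop anchors, and its occupancy had been read by ChIP-seq (sequencing of immunoprecipitated chromatin) in left-ventricular cardiac myocytes of C57BL/6 mice. The CTCF knockout myocytes and the control myocytes were each pooled from 3 hearts and gave 1 ChIP library, so no test between genotypes was possible and every difference is between 2 libraries. The sources used here do not give the driver or timing of the deletion or the age of the mice, and the input libraries were not analysed here.

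T-box factors share a DNA-binding domain and pattern the heart and limbs of the embryo. In the heart, Tbx5 and Tbx20 act in the working muscle of the chambers, Tbx2 and Tbx3 repress the chamber programme in the atrioventricular canal and the conduction system, Tbx18 marks the sinus node head and the epicardium, and Tbx1 acts in the progenitors of the outflow tract. Tbx4 is known for the hindlimb and the lung. Tbx2 lies beside Tbx4 and Tbx3 beside Tbx5, gene pairs that arose by duplication of an ancestral pair, and CTCF sites near such developmental genes are studied because they can bound the stretch of chromatin in which a gene meets its enhancers.

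The library labelled knockout still held 16128 regions over the genome, and it is therefore called by its label. The fold enrichment of a region is the authors' value of its signal over the local background. The deposited values fit a form with a constant added to both, so it is smaller than the plain ratio of reads. It is used only to describe and rank regions within their own list. Its median was 7.13 in the labelled-knockout list and 6.98 in the control list. The number of reads stacked at a summit (the pileup) was recovered from the deposited values, with a median of 14 reads in the labelled-knockout list and 15 in the control list. The lowest local background was 0.851 reads in the labelled-knockout list and 1.01 reads in the control list. No read depth is given in the lists, and the intervals below cover counting error only. The lists hold no expression values, so the labelled cell type could not be checked against marker genes.

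Sequence could be shown where a region met a promoter window of RefSeq (GRCm38.p6, the assembly called mm10), which runs from 250 bases before to 50 bases after a transcription start. Such windows were matched for 4 of the 7 genes: Tbx1, Tbx4, Tbx18 and Tbx20. Among them the window of Tbx18 was the only one that a region of either list met. A further window, that of the long non-coding gene Tbx3os2 between Tbx3 and Tbx5, was met by a region of both lists. These windows and that of Tbx20, the gene with no control region nearby, are printed 5′ to 3′ on the strand of the gene, and capitals mark the bases covered by a control region.
Tbx3os2, chr5:119691169-119691468, minus strand: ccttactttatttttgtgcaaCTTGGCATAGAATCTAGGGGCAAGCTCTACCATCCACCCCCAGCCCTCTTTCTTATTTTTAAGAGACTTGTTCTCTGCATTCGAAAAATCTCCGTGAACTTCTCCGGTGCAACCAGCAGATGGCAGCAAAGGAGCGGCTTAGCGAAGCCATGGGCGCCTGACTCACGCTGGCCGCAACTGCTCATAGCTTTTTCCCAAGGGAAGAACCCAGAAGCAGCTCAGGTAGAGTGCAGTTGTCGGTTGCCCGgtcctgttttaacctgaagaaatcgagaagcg
Tbx18, chr9:87731211-87731510, minus strand: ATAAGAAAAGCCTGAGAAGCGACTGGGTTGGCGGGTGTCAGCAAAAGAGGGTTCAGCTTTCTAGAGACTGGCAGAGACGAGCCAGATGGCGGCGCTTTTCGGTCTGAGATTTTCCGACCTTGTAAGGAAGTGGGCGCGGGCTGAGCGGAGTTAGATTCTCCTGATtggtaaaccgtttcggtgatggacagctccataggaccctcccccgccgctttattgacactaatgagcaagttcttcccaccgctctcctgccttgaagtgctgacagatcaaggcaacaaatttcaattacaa
Tbx20, chr9:24774254-24774553, minus strand: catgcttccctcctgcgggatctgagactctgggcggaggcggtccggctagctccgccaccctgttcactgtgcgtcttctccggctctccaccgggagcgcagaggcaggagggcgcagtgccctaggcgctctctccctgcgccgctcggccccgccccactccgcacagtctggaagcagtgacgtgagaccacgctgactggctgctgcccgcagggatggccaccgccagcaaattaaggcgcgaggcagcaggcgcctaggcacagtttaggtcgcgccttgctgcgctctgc
A short core of the CTCF motif, AGNNGGCA (N is any base), was searched on both strands. The Tbx3os2 window holds 1 match, AGATGGCA, at positions 139 to 146 counted from the 5′ end. The match lay inside the region of both lists, with its centre 40 bp from the summit of the labelled-knockout region and 36 bp from that of the control region. The windows of Tbx18, Tbx20 and Tbx4 held no match, and 1 of the 2 windows of Tbx1 held a match under no region. So short a core is common: it occurred in 20.7% of all 32851 RefSeq promoter windows, in 30.8% of the 885 windows that held the summit of a control region also called in the labelled-knockout list, and in 25.4% of the 366 windows that held only a control summit with no such counterpart. With the last letter left out (AGNNGGC) the core is commoner still, in 59.8% of all windows, in 87.2% of those with a shared control summit and in 77.0% of those with only a control-only summit. The Tbx18 window had 2 matches to it, and the one at positions 84 to 90, AGATGGC, was centred 4 bp from the control summit. Windows under no region held it too, with 1 match for Tbx20, 3 for Tbx4 and 1 in a window of Tbx1. The Tbx18 window, under a region of the control list alone, had a GC content of 51.7%, against a median of 52.7% over all windows, while that of Tbx20 had 68.3%.

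Across all 7 genes, most regions of the labelled-knockout list were also in the control list, and the share of control regions missing from the labelled-knockout list was close to that of the whole control list. Of the 16 labelled-knockout regions, 15 overlapped a control region by at least 1 bp and 1 did not (6.25%, Wilson 95% interval 1.11 to 28.3). In the whole labelled-knockout list 14.2% of regions had no control counterpart, and 13.8% of those within 100 kb of a protein-coding gene. Of the 22 control regions, 15 overlapped a labelled-knockout region and 7 did not (31.8%, interval 16.4 to 52.7), and these 7 are called control-only. In the whole control list 31.0% of regions were control-only, and 30.7% of those within 100 kb of a protein-coding gene. Both intervals around the T-box shares covered the share of the whole list. Weak regions are unshared more often than strong ones in both lists, so the counts were also set beside all regions of the same decile of fold enrichment. At the rates of those deciles, 1.17 of the 16 labelled-knockout regions and 7.37 of the 22 control regions would have been unshared.

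**Figure D1:**
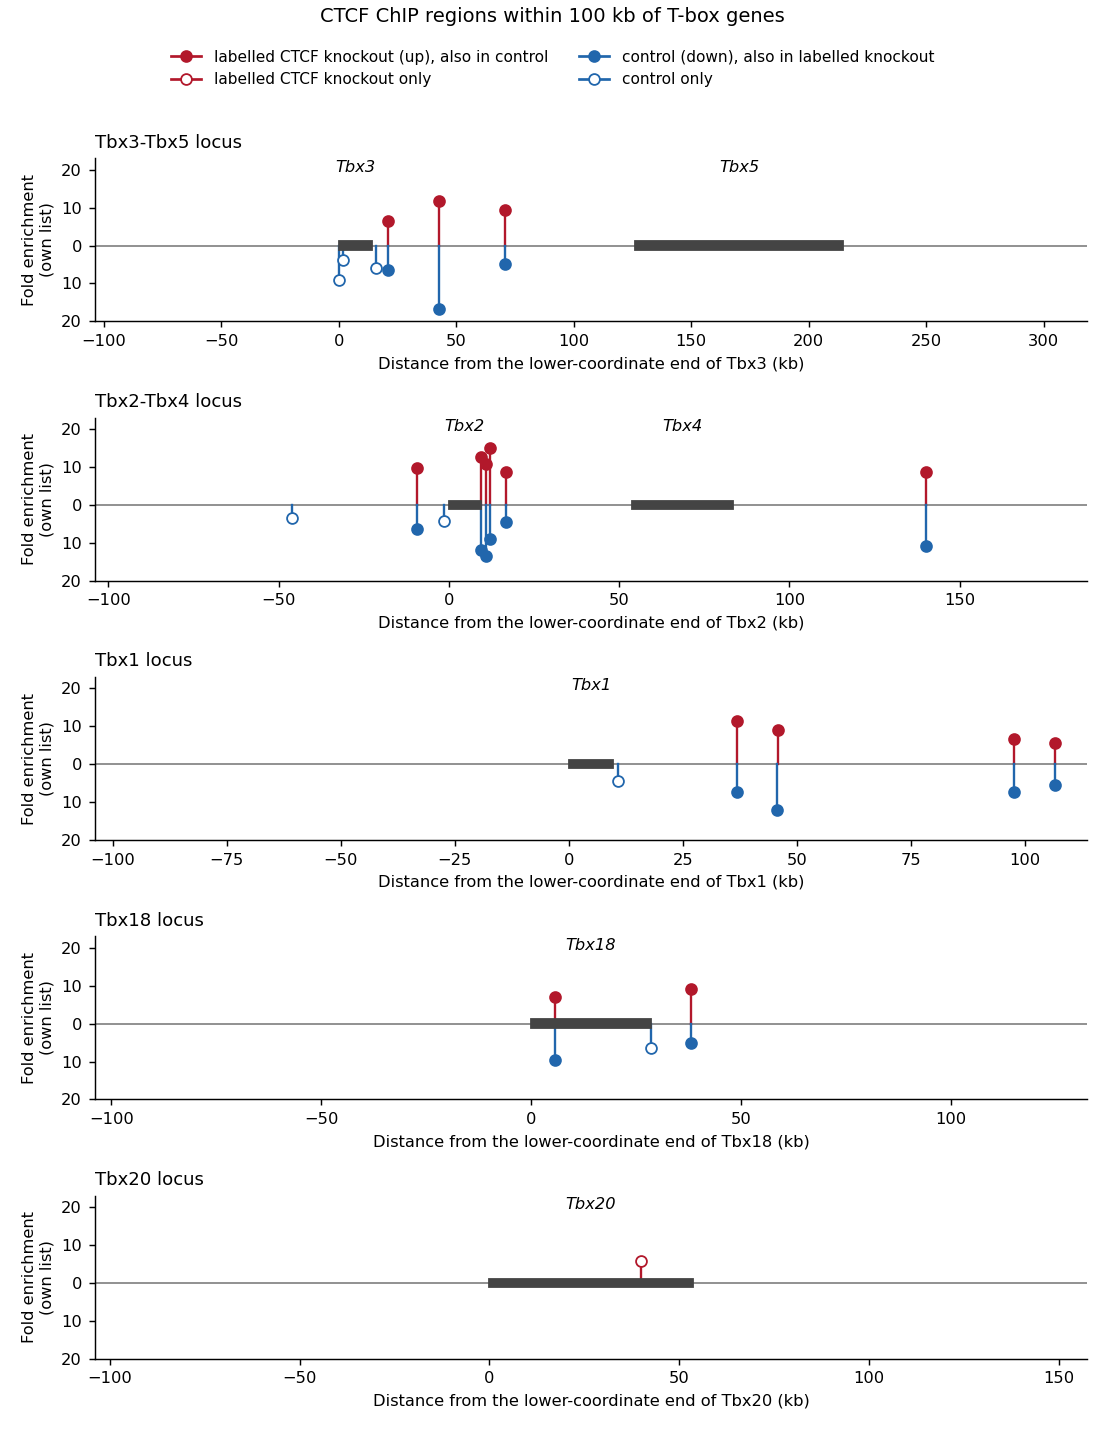
Maps of the 5 loci, with distance in kb from the lower-coordinate end of the first gene on the x axis and the authors' fold enrichment in the region's own list on the y axis, upwards for the labelled CTCF knockout library and downwards for the control. Dark grey bars are gene spans, filled points are regions found in both lists, and open points are regions of 1 list. The open control points lie mostly at the ends of Tbx1, Tbx2, Tbx3 and Tbx18, and Tbx20 has a single open labelled-knockout point.

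At the Tbx3 and Tbx5 pair (chromosome 5), the regions inside Tbx3 and within 2 kb of it were called in the control alone, and those deeper in the stretch between the genes were called in both libraries. Tbx3 spans 119670534 to 119684724 and Tbx5 spans 119796514 to 119885220. Within 100 kb of the pair the labelled-knockout list held 3 regions, all shared, and the control list held 6, of which 3 were shared and 3 were control-only (50%, interval 18.8 to 81.2). The decile rates give 2.23 control-only of these 6, the share of the whole control list was 31.0%, and the interval covers it. All 3 labelled-knockout regions and 4 of the control regions lay in the 112 kb between the genes. No region of either list lay inside Tbx5, on its outer side, or on the outer side of Tbx3 within the 100 kb.

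The strongest region of the pair lay 28.3 kb from Tbx3 on the side of Tbx5, at 119712802 to 119713164 in the labelled-knockout list and 119712959 to 119713286 in the control list. Its fold enrichment was 11.7 in the labelled-knockout list, from 23 reads (exact Poisson interval 14.6 to 34.5), and 16.8 in the control list, from 38 reads (26.9 to 52.2). It was the strongest control region near any of the 7 genes, and 98.1% of the control list was weaker. A region nearer to Tbx5, 55.2 kb from that gene, had a fold enrichment of 9.51 in the labelled-knockout list and 4.83 in the control list. The region at the start of Tbx3os2, shown above, had 6.36 from 12 reads in the labelled-knockout list and 6.33 from 17 reads in the control list. These 3 regions were thus found in both libraries, and their order within each list differed at the lower end: the Tbx3os2 region was the weakest of the 3 among the labelled-knockout regions, and the region nearest Tbx5 was the weakest among the control regions. The pileup of these weaker regions had overlapping intervals within each list, 6.20 to 21.0 and 13.0 to 32.1 reads in the labelled-knockout list and 9.90 to 27.2 and 7.65 to 23.5 reads in the control list.

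The 3 control-only regions of this pair were at Tbx3 itself. The first (119670407 to 119670841) covered the lower-coordinate end of Tbx3, where the span of the antisense-named non-coding gene Tbx3os1 overlaps it, and had a fold enrichment of 9.06 from 20 reads (12.2 to 30.9). It was stronger than 72.4% of the control list, and 7.84% of control regions in its decile of fold enrichment were control-only. The nearest labelled-knockout summit was 20.5 kb away. It was the strongest control-only region near the 7 genes. The other 2 were weaker: one inside Tbx3, 1.41 kb from the first (119672140 to 119672275) had a fold enrichment of 3.88 from 8 reads, and one within Tbx3os2, 1.70 kb beyond the other end of Tbx3, had 5.98 from 11 reads. In the deciles of these weaker regions 68.1% and 42.9% of control regions were control-only.

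Tbx3 and Tbx5 both border long stretches with no region. On the outer side of Tbx3 the next region lay 791 kb away in both lists. The stretch without a region that ends at or beside Tbx3 measured 811 kb in the labelled-knockout list, where 3.77% of distances between neighbouring regions were as long, and 791 kb in the control list, where 2.93% were. The whole of Tbx5 lay in a stretch of 347 kb without a region in both lists, and 9.64% of labelled-knockout distances and 7.31% of control distances were at least that long. The median distance between neighbouring summits was 47.1 kb in the labelled-knockout list and 38.7 kb in the control list. The shares of distances given here and for the other genes count every distance once. A long distance covers more of the genome, so they do not give how often a gene lies in such a stretch.

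At the Tbx2 and Tbx4 pair (chromosome 11), regions were packed at 1 end of Tbx2 and all of these were found in both libraries. Tbx2 spans 85832615 to 85841948 and Tbx4 spans 85886367 to 85916097. The labelled-knockout list held 6 regions within 100 kb of the pair, all shared, and the control list held 8, of which 6 were shared and 2 were control-only (25%, interval 7.15 to 59.1). The decile rates give 2.56 control-only of these 8, and the share of the whole control list was 31.0%. In the 44.4 kb between the genes each list had 4 regions. No region lay inside Tbx2 or Tbx4 in either list.

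The 4 regions between the genes all lay within 7.4 kb of Tbx2, with their summits spread over 7.15 kb in the labelled-knockout list and 7.09 kb in the control list. The nearest to the gene had a fold enrichment of 12.7 from 25 reads in the labelled-knockout list, 0.193 kb from the higher-coordinate end of Tbx2, and 12.0 from 30 reads in the control list, 0.241 kb from it. The next had 10.7 from 21 reads in the labelled-knockout list, at 1.46 kb, and 13.5 from 26 reads in the control list, at 1.48 kb. All of these values are above the median of their list. The third, 2.88 kb from the gene in the labelled-knockout list and 2.86 kb in the control list, had 15.1 from 27 reads in the labelled-knockout list and 9.06 from 20 reads in the control list. The fourth, furthest from the gene, had 8.65 from 17 reads in the labelled-knockout list, at 7.35 kb, and 4.5 from 13 reads in the control list, at 7.33 kb, and was the weakest of the 4 in both lists. The third was thus the strongest of the 4 in the labelled-knockout list and the second was the strongest in the control list, but within each list the Poisson intervals of these regions' pileups overlapped: they were 17.8 to 39.3 and 13.0 to 32.1 reads for the third and second labelled-knockout regions, and 12.2 to 30.9 and 17.0 to 38.1 reads in the control. At least 3 other summits within 8 kb were found for 3.13% of all labelled-knockout regions and 3.47% of all control regions. Near the T-box genes only these 4 regions in each list met that limit. The limit was not planned and fits the spread of these summits, so they were bound to meet it.

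On the far side of Tbx2, a region 9.22 kb from the gene, within the span of Bcas3 and of the non-coding gene 2610027K06Rik, was found in both libraries, with a fold enrichment of 9.73 in the labelled-knockout list and 6.23 in the control list. The 2 control-only regions of the pair were on this side and were weak. One, 1.38 kb from Tbx2 within 2610027K06Rik, had 4.19 from 8 reads, and one within Bcas3, 46.2 kb from Tbx2, had 3.49 from 6 reads. On the outer side of Tbx4 a shared region lay 56.5 kb from the gene, with 8.78 in the labelled-knockout list and 10.8 in the control list. Tbx4 itself lay in a stretch of 123 kb with no region in either list, and 26.9% of labelled-knockout distances and 22.1% of control distances were as long.

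**Figure D2:**
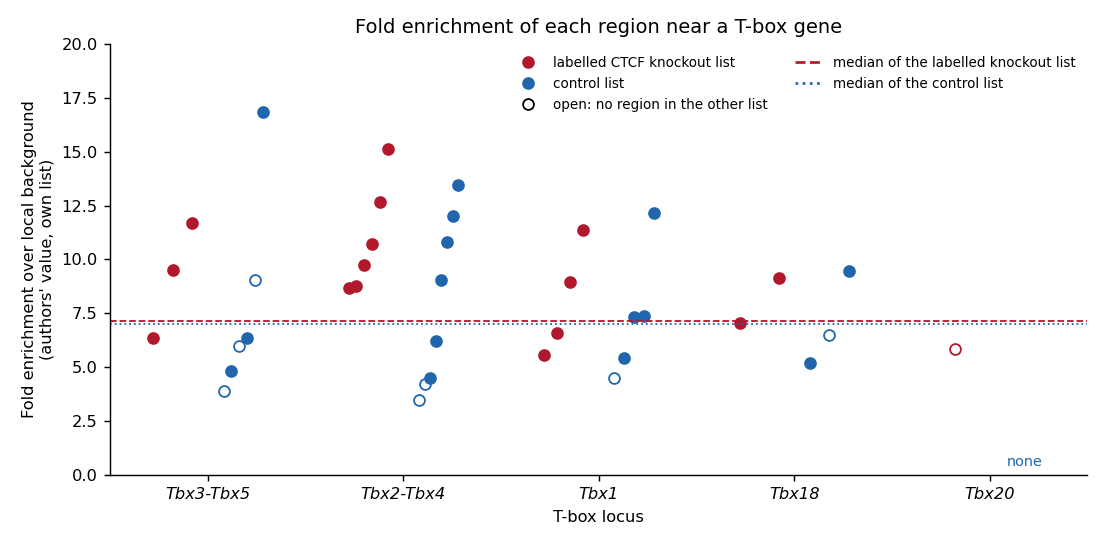
Fold enrichment of every region within 100 kb of a T-box gene, by locus, in the labelled CTCF knockout list (red) and the control list (blue). Each point is 1 region, open points have no region in the other list, and the lines are the medians of the whole lists, 7.13 and 6.98. The region with 9.06 at Tbx3 is the only open control point above the control median.

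Tbx1 (chromosome 16, 18580979 to 18590671, minus strand) had shared regions on its upstream side and a control-only region close to its start. The labelled-knockout list held 4 regions within 100 kb, all shared, and the control list held 5, of which 1 was control-only (20%, interval 3.62 to 62.4). The decile rates give 1.62 control-only of these 5, and the share of the whole control list was 31.0%. The control-only region (18591762 to 18591905), in the non-coding gene Gm35369, lay 1.17 kb from the higher-coordinate end of Tbx1 and had a fold enrichment of 4.49 from 8 reads. Of the shared regions, the one 27.2 kb from Tbx1, between 4930588K23Rik and Gp1bb, a platelet glycoprotein gene, had 11.3 in the labelled-knockout list and 7.31 in the control list. The one within Septin5, a cytoskeletal GTPase gene, 36.1 kb from Tbx1, had 8.95 in the labelled-knockout list and 12.2 in the control list. The region within Septin5 was thus the strongest of the locus in the control list, and the one beside Gp1bb in the labelled-knockout list. Within each list, however, the Poisson intervals of their pileups overlapped. For the Gp1bb and Septin5 regions they were 12.2 to 30.9 and 9.15 to 26.0 reads in the labelled-knockout list. In the control list they were 9.15 to 26.0 and 15.4 to 35.7 reads. The remaining shared regions, 87.8 and 96.9 kb from Tbx1, had, in that order, 6.59 and 5.57 in the labelled-knockout list and 7.36 and 5.42 in the control list. The next region lay just outside the limit, 106 kb from Tbx1, and was also shared, with 9.19 in the labelled-knockout list and 7.38 in the control list.

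Tbx18 (chromosome 9, 87702800 to 87731260, minus strand) had a region inside the gene and a region beyond its start that were found in both libraries, and a control-only region at its start. The labelled-knockout list held 2 regions, both shared, and the control list held 3, of which 1 was control-only (33.3%, interval 6.15 to 79.2). The decile rates give 0.965 control-only of these 3, and the share of the whole control list was 31.0%. The control-only region (87731346 to 87731535) had its summit 168 bp upstream of the start of Tbx18, and 165 of its 190 bp lay in the promoter window printed above. Its fold enrichment was 6.48 from 12 reads (6.20 to 21.0), and 36.3% of control regions in its decile were control-only. The region inside Tbx18 had 7.02 in the labelled-knockout list and 9.47 in the control list, and the region 9.62 kb beyond the start, within the non-coding gene Gm36767, had 9.13 in the labelled-knockout list and 5.18 in the control list. On the other side of the gene the next region was 956 kb away in the labelled-knockout list and 283 kb away in the control list, where it had a fold enrichment of 6.82 and was itself control-only.

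Tbx20 (chromosome 9, 24720812 to 24774303, minus strand) was the only gene of the 7 with no control region within 100 kb, and it had the only region found in the labelled-knockout list alone. That region (24760557 to 24760742) lay inside the gene, with a fold enrichment of 5.85 from 11 reads (5.49 to 19.7), and 26.1% of the labelled-knockout list was weaker. In its decile of fold enrichment 28.2% of labelled-knockout regions had no control counterpart. The nearest control summit was 177 kb away. The control list had a stretch of 421 kb without a region over Tbx20, and 5.82% of its distances between neighbours were as long. That share counts every distance once, so it is not the share of genes in such a stretch. Among all 21887 protein-coding genes, 341 (1.56%) shared this pattern of at least 1 labelled-knockout region and no control region within 100 kb, and 964 (4.40%) had the opposite pattern.

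The distance of the summit from the T-box gene was then compared between shared and control-only regions, a comparison chosen after the values had been seen and therefore given with no test. Of the 9 control regions inside or within 2 kb of a T-box gene, 6 were control-only (66.7%, interval 35.4 to 87.9). Of the 13 further away, 1 was control-only (7.69%, interval 1.37 to 33.3). The split moved with the distance chosen: with 1 kb in place of 2 kb, 3 of 5 near and 4 of 17 more distant regions were control-only. The 6 were at Tbx3 (3 regions), Tbx1, Tbx2 and Tbx18 (1 each), and the single distant one lay within Bcas3. Over all protein-coding genes, with the distance taken to the nearest of them, 33.5% of 12306 control regions within 2 kb were control-only. Between 2 and 100 kb the share was 25.8% of 6866 regions. The 2 splits are not alike. A summit within Bcas3 or Septin5 counts as distant from a T-box gene, but as near a gene in the genome-wide split. Of the control regions inside a T-box gene, 2 in Tbx3 were control-only and 1 in Tbx18 was shared, against a control-only share of 34.9% for regions inside any protein-coding gene. The median fold enrichment was 6.48 for the 9 near regions and 6.33 for the 13 distant ones. Among the 9 near regions it was 5.23 for the 6 control-only regions and 12.0 for the 3 shared ones. The part of fold enrichment in the split was not tested. At the rates of their deciles, 3.04 of the 9 and 4.34 of the 13 would have been control-only. Of the 4 labelled-knockout regions within 2 kb of a T-box gene, 3 were shared, those being 2 at Tbx2 and 1 in Tbx18, and the fourth was the region in Tbx20. The unshared share was thus 25% (interval 4.56 to 69.9), and the decile rates give 0.427 of these 4. Of all 9481 labelled-knockout regions within 2 kb of a protein-coding gene, 13.7% had no control counterpart.

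**Figure D3:**
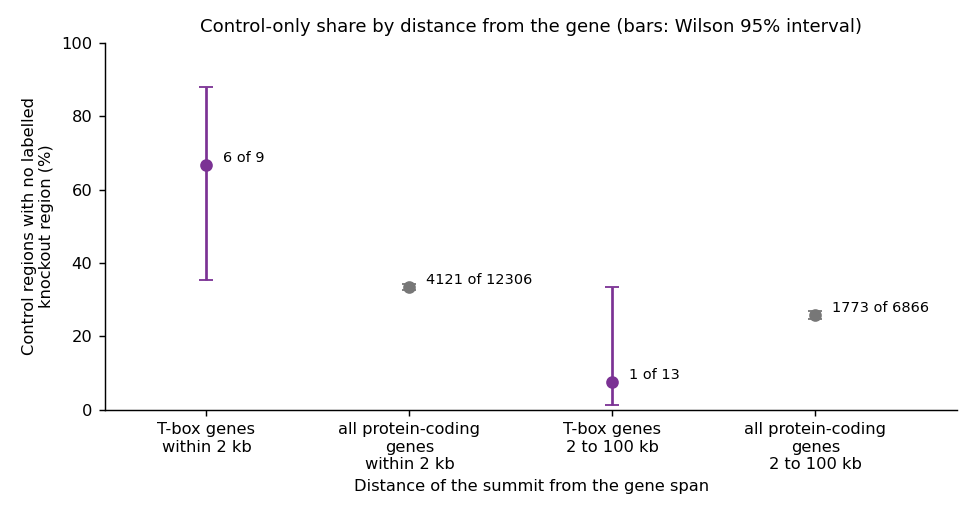
Share of control regions with no labelled-knockout region (y axis, percent, with Wilson 95% intervals) for regions within 2 kb of the gene span and for regions further away up to 100 kb, at T-box genes and at all protein-coding genes. The T-box shares are 6 of 9 and 1 of 13, and the genome-wide shares lie between them. The T-box regions are few and several share a locus. Distance is to the T-box genes in the T-box shares and to the nearest protein-coding gene in the others, so the classes are not alike.

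The shared regions were also compared in position. In the 15 shared pairs of regions the summits of the 2 lists lay 11 to 76 bp apart, with a median of 41 bp, against a median of 26 bp over all shared pairs of the lists. The widest gap, 76 bp, was at Tbx3os2, and the narrowest, 11 bp, was at the second region beside Tbx2. The overlap ran from 144 to 477 bp. Median width was 250 bp for the labelled-knockout regions of these pairs and 328 bp for the control regions. Over all 13832 pairs it was 238 bp for the labelled-knockout regions and 257 bp for the control regions. The control region was the wider in 8 of the 15 pairs, against 56.6% of all pairs.

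The number of regions per gene was then set beside all 21887 protein-coding genes, which had a median of 2 regions within 100 kb in the labelled-knockout list and 3 in the control list. Tbx4 had the most of the 7 genes, with 6 labelled-knockout and 8 control regions, of which 5 labelled-knockout and 7 control regions were also within 100 kb of Tbx2. In the whole gene set 19.9% of genes had at least 6 labelled-knockout regions and 14.7% had at least 8 control regions. Tbx2 had 5 labelled-knockout and 7 control regions, Tbx1 had 4 labelled-knockout and 5 control regions, and Tbx3 had 3 labelled-knockout and 6 control regions. Tbx5 had 2 regions in each list although its span is the longest of the 7, at 88.7 kb, and Tbx18 had 2 labelled-knockout and 3 control regions. Tbx20 had 1 labelled-knockout region and no control region, and 19.3% of all genes had no control region. The upper quartile of all genes was 5 labelled-knockout and 6 control regions. Tbx4 lay above it in both lists and Tbx2 in the control list, and the other counts were at or below it. None of the 7 genes came near the highest counts, 53 labelled-knockout and 36 control regions.

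**Figure D4:**
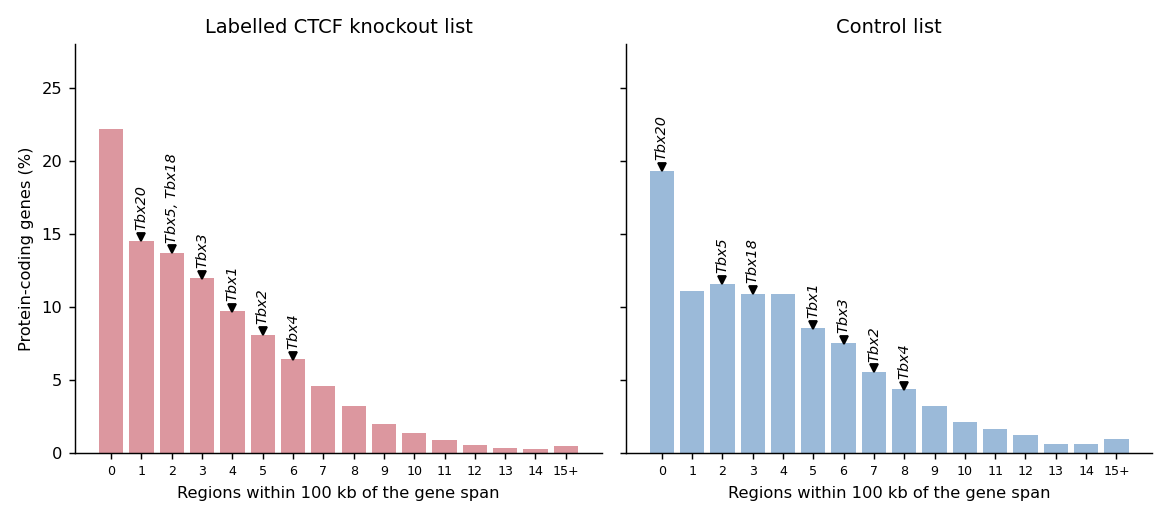
Percentage of all protein-coding genes (y axis) by the number of CTCF regions within 100 kb of the gene span (x axis), in the labelled CTCF knockout list (left) and the control list (right). Arrowheads mark the 7 T-box genes, which run from 1 to 6 regions on the left and from 0 to 8 on the right.

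Other T-box genes and genes that work with T-box factors in the heart were counted in the same way. Near the other 10 T-box family genes, all 41 labelled-knockout regions were shared (0 unshared, which allows a share of up to 7.32% by a count of 3) and 9 of 50 control regions were control-only (18%, interval 9.77 to 30.8), against 14.2% of all labelled-knockout regions and 31.0% of all control regions. At the rates of their deciles of fold enrichment, 5.61 of the 41 and 15.2 of the 50 would have been unshared. Their median fold enrichment was 7.31 in the labelled-knockout list and 7.17 in the control list, close to the medians of the whole lists. Tbx21, which directs T helper cells, had the strongest shared control region (17.3), and Mga, which joins a T-box to a Max-binding domain, had the strongest control-only one (6.82). Tbx22 had no region in either list. Near 7 cardiac partners of T-box factors, 3 of 19 labelled-knockout regions had no control counterpart (15.8%) and 6 of 22 control regions were control-only (27.3%), where the decile rates give 2.48 of 19 and 3.90 of 22. Gata5, a zinc-finger factor gene, had the strongest shared control region (16.1) and Hand2, a basic helix-loop-helix factor gene, the strongest control-only one (10.97), while Isl1, a progenitor factor gene, had none. Near 13 cardiac target genes, 7 of 34 labelled-knockout regions had no control counterpart (20.6%) and 12 of 39 control regions were control-only (30.8%), where the decile rates give 5.20 of 34 and 10.99 of 39. Mycn, a growth-promoting factor gene, had the strongest shared control region (12.5) and Atp2a2, the calcium pump of the sarcoplasmic reticulum, the strongest control-only one (9.47). Fgf10 had no region in either list. Nppa and Nppb, which are neighbours, had the same counts. Each had 5 labelled-knockout regions, 2 of them with no control counterpart, and 6 control regions, 3 of them control-only.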

How the data were processed

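Per the submitters' processing notes, the authors used Bowtie2 2.2.6, SAMtools 0.1.19 and MACS2 with the mm10 build. No source used here gives the MACS2 version, its threshold or how duplicates were treated. Each library has its own deposited list of regions, whose names include input_BG. For every region the authors' deposited values are a fold enrichment (signal over local background, with a constant added to both), a −log10 p, a −log10 q and a score. The score was 10 times the −log10 q, cut to a whole number, in 100% of regions. The lowest deposited −log10 q was 1.37 in the labelled-knockout list and 1.32 in the control list.

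Gene spans came from a RefSeq table of GRCm38.p6 that gives no exons, so no exon or intron is named, and strands came from the RefSeq promoter table. All lines were used, and an overlap of at least 1 bp made regions shared. Pileups were solved from fold enrichment and −log10 p under MACS2's formulas. In 100% of regions of either list a whole number of reads returned the deposited −log10 p to 0.001. This calculation and the overlap were tested on simulated data. Shares have Wilson 95% intervals and pileups exact Poisson intervals. No genome was used, so promoter windows were searched in place of the planned windows around summits, a change made after the data were seen; longer forms of the core searched first are not reported here. All regions within 100 kb of the 7 genes were described, and from each further list the genes with the strongest shared and the strongest control-only control region were named. The members and lists were chosen with earlier results of these data known. Alternatives were windows of 50 and 200 kb, a −log10 q or fold enrichment of at least 5, a pileup of at least 15 reads, a reciprocal overlap of 50% and summits within 100 bp. Calculations ran in Python 3.11.15 with pandas 2.3.3, numpy 2.4.6 and scipy 1.17.1, and plots in matplotlib 3.10.9.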

Additional observations from a re-analysis of the deposited data

How the results depend on the processing

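No paired analysis was possible because knockout and control had a single library each, and leaving out a replicate would leave none. When 15 reads were required at the summit, 11 labelled-knockout and 11 control regions were left near the 7 genes, against 16 labelled-knockout and 22 control regions as deposited; under the other alternatives run, each number stayed within 1.5 times its main value. The share of unshared labelled-knockout regions near the 7 genes ran from 6.25% to 27.3% (15 reads, 3 of 11), inside the interval of its main value, but moved from below the whole list as deposited (14.2%) to above it at 15 reads (15.2%). With a −log10 q or fold enrichment of at least 5 it was 18.75%, against 16.2% and 16.8% of the whole list. The control-only share ran from 18.75% (−log10 q or fold enrichment of at least 5, 3 of 16, against 28.4% and 28.7% of the whole list) to 38.9% (window of 50 kb, 7 of 18), inside its interval, and was 27.3% at 15 reads, against 37.2% of the whole list. Stricter thresholds remove weak counterparts in the other list, so shared regions can become unshared. Within 2 kb of a T-box gene the control-only share was 50% with each of the 3 stricter thresholds. In the order −log10 q, fold enrichment and reads, the counts were 3 of 6, 3 of 6 and 2 of 4. The whole control list had 28.4%, 28.7% and 37.2%, inside the wide intervals of these few regions. The share within 2 kb of any protein-coding gene was not calculated under these thresholds. At 15 reads the count included the region inside Tbx18, which was shared as deposited. With reciprocal overlap the share within 2 kb of a T-box gene was 77.8%, and that of the whole control list rose too, to 40.2%. With the main settings the control-only share was 60% within 1 kb, 60% within 5 kb and 42.9% within 10 kb. Further away, against 7.69% in the main split, it was 0 of 10 with a −log10 q or fold enrichment of at least 5, 14.3% at 15 reads, 11.1% with the 50 kb window, 15.8% with the 200 kb window, 23.5% (4 of 17) beyond 1 kb, 8.33% beyond 5 kb and 12.5% beyond 10 kb. These distances, and 2 kb, were chosen after the values had been seen. At Tbx1 and at Tbx2 and Tbx4 no control-only region was left under the 3 stricter thresholds. In the order −log10 q, fold enrichment and reads, Tbx3 and Tbx5 had 2 of 5, 2 of 4 and 2 of 3. Tbx18 had 1 of 2, 1 of 3 and 1 of 1. At 15 reads these included the regions at Tbx3os2 and inside Tbx18. Both were shared as deposited, and each had 12 reads in the labelled-knockout list. Tbx20 had no control region and gives no share. The planned motif alternatives around summits were not run.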
